A study of Mus musculus with 16 samples.

Results

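The *mt-Co3* mRNA of mouse heart mitochondria carried 16 RNase footprints, of 302 in the deposited lists. Of these, 11 were called on the track of control mice, where by the calling rule they were more protected than in mice without LRPPRC, and 5 on the track of *Lrpprc* knockout mice, where they were more protected than in control mice. Members were taken by position alone, as all footprints on the plus strand whose largest overlap with a gene on that strand, of at least 1 nt, was with *mt-Co3*. All 16 lay wholly inside the gene.

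The control mice were *Lrpprc* loxP/loxP and the knockout mice *Lrpprc* loxP/loxP, Cre+, which lack the protein in heart and skeletal muscle only, because its loss from the whole body is lethal to the embryo. All were males of the C57BL/6N background, aged 12 weeks. Lysates of heart mitochondria were treated with 1 of 3 endonucleases or with none (mock), so each genotype had 4 libraries. The enzyme concentrations were 10 U/µl for RNase A, 0.1 U/µl for T1 and 0.01 U/µl for If. *Slirp* control and knockout mice are also in the labels and were not analysed here.

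LRPPRC is a pentatricopeptide repeat protein that forms a complex with SLIRP in the mitochondrial matrix, and it is needed for the stability and polyadenylation of mitochondrial mRNAs. *mt-Co3* encodes subunit III of cytochrome c oxidase, the last enzyme of the respiratory chain. Its coding sequence follows that of *mt-Atp6* with no tRNA between them and is followed at once by the tRNA gene *mt-Tg*.

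The gene (ENSMUSG00000064358.1) spans 784 nt of the plus strand, chrM:8607-9390 in mm10, and shares 1 nt with *mt-Atp6*. It starts with ATG and holds 261 whole codons and 1 further nucleotide, a T, at its end. Such a T is the start of a stop codon that a poly(A) tail completes. No untranslated part is annotated, so every footprint was in coding sequence.

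The values of a footprint are its position, its length and 2 scores. The C score is the log10 ratio of the coverage of 5′ ends with RNase, taking the highest of the 3 enzymes at each nucleotide, over that in the mock digestion. A central C score below 0 therefore means fewer ends with RNase than without it. For the F score, the accessibility of the centre is divided by that of each flank of 3 nt and the 2 quotients are added, so that 2 means a centre as accessible as its flanks and lower values mean deeper protection. Both scores are those of the genotype in which the footprint was called. All libraries of a genotype were joined by the authors into a single track, so no value has an error between mice, no test between genotypes was possible, and the depth of the libraries is unknown.

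The sequences shown here are those of the footprint with the lowest F score, of the footprints nearest to either end of the gene, and of every footprint that touched one of the other list. They are mm10 plus-strand sequences, 5′ to 3′. Capitals mark the footprint and lower case its flanks.

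Control-called, chrM:8630-8645: tcaCATAGTTAATcca
Control-called, chrM:8761-8786: tcaCAATATATCAATGATGACGAgac
Control-called, chrM:9010-9035: cagTACTTCTAGCATCAGGTGTTtca
Control-called, chrM:9189-9213: tctACATTCTTCATGGCTACTGgat
Control-called, chrM:9244-9258: catTCCTTATTGttt
Control-called, chrM:9295-9311: aacATCACTTCGGAttt
Knockout-called, chrM:8738-8767, the 3′ part of a footprint of 33 nt: CCTTGGCCTACTCACCAATATCCTCACaat
Knockout-called, chrM:9009-9025: tcaGTACTTCTAGCatc
Knockout-called, chrM:9251-9280, the 5′ part of a footprint of 38 nt: tatTGTTTGCCTACTACGACAACTAAAATT

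The deepest protection of *mt-Co3* on the control track was at nt 586 to 604 of the coding sequence, codons 196 to 202, the capitals of chrM:9189-9213 above. From this site the study took an RNA probe for binding assays in vitro. The paper also lists it among footprints that overlap LRPPRC sites found by PAR-CLIP in mouse embryonic fibroblasts, as it does most other control-called footprints of *mt-Co3*. This footprint was 19 nt long, with a central C score of -0.537 and an F score of 0.473. Its F score was the lowest on *mt-Co3* and the fifth lowest of the 178 control-called footprints, and its C score the third lowest. In linear terms the centre had 0.291 times the mock coverage. From F and C together, the harmonic mean of the accessibility of its flanks was 1.23 times mock, 4.23 times that of the centre. Its sequence, ACATTCTTCATGGCTACTG, has 7 T, 5 C, 4 A and 3 G. Between it and the nearest footprint of the knockout track, downstream, lay 43 nt, and between it and the preceding control-called footprint 159 nt. The latter stretch, from 9033 to 9191, was the longest part of the gene without a control-called footprint.

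Upstream of it, control-called footprints lay closest together in the 5′ part of the gene. From 8764 to 8885, a span of 122 nt, there were 5 footprints, and 58.2% of the nucleotides in this span were inside one. The first of the group, at 8764 to 8783, was 20 nt long with a C score of -0.168 and an F score of 0.598, the second lowest on the transcript. Only 1 nt separated it from a footprint of 8 nt at 8785 to 8792, with a C score of -0.153 and an F score of 1.26. The flank of each reaches into the other, so their scores are not independent. Between 8818 and 8842 lay the longest control-called footprint of *mt-Co3*, of 25 nt, with a C score of -0.153 and an F score of 0.737. Then came a pair of 9 nt each. The one at 8856 to 8864 had the highest F score of the control-called footprints on this transcript, 1.28, with a C score of -0.174. The other, at 8877 to 8885, had an F score of 0.736 and a C score of -0.398.

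Outside this group the control-called footprints were spread singly. The one nearest to the start codon, at 8633 to 8642, began 26 nt into the gene and had a C score of -0.0754 and an F score of 0.979. Upstream of it no control-called footprint was found until 8439 to 8446 in *mt-Atp6*, so the junction of the reading frames at 8607 was free of them. At 8935 to 8942, a footprint of 8 nt had a C score of -0.515 and an F score of 0.686. At 9013 to 9032, one of 20 nt had a C score of -0.0919 and an F score of 0.851. The last 2 were at 9247 to 9255, 9 nt long with a C score of -0.247 and an F score of 0.904, and at 9298 to 9308, 11 nt long with a C score of -0.264 and an F score of 1.07. The latter ended 82 nt before the end of the gene, and the next control-called footprint on this strand began 115 nt beyond that end, in *mt-Nd3*. The part of the mRNA to which the poly(A) tail is added was thus without a called footprint in either list.

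On the knockout track the 5 footprints of *mt-Co3* were longer and shallower. They began later than the first control-called footprint and ended earlier than the last. At 8732 to 8764, one of 33 nt had a C score of 0.0186 and an F score of 1.38. At 8897 to 8921, one of 25 nt had a C score of 0.0369 and an F score of 1.53. These lay on either side of the dense group of control-called footprints, and the 132 nt between them, from 8765 to 8896, were the longest gap between knockout-called footprints. At 9012 to 9022, the shortest, of 11 nt, had a C score of 0 and the highest F score, 1.76. At 9110 to 9139, one of 30 nt had a C score of 0.0681 and an F score of 1.55. It lay inside the stretch of 159 nt that had no control-called footprint. At 9254 to 9291, the longest, of 38 nt, had a C score of 0.0126 and the lowest F score of the 5, 1.29.

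**Figure D1:**
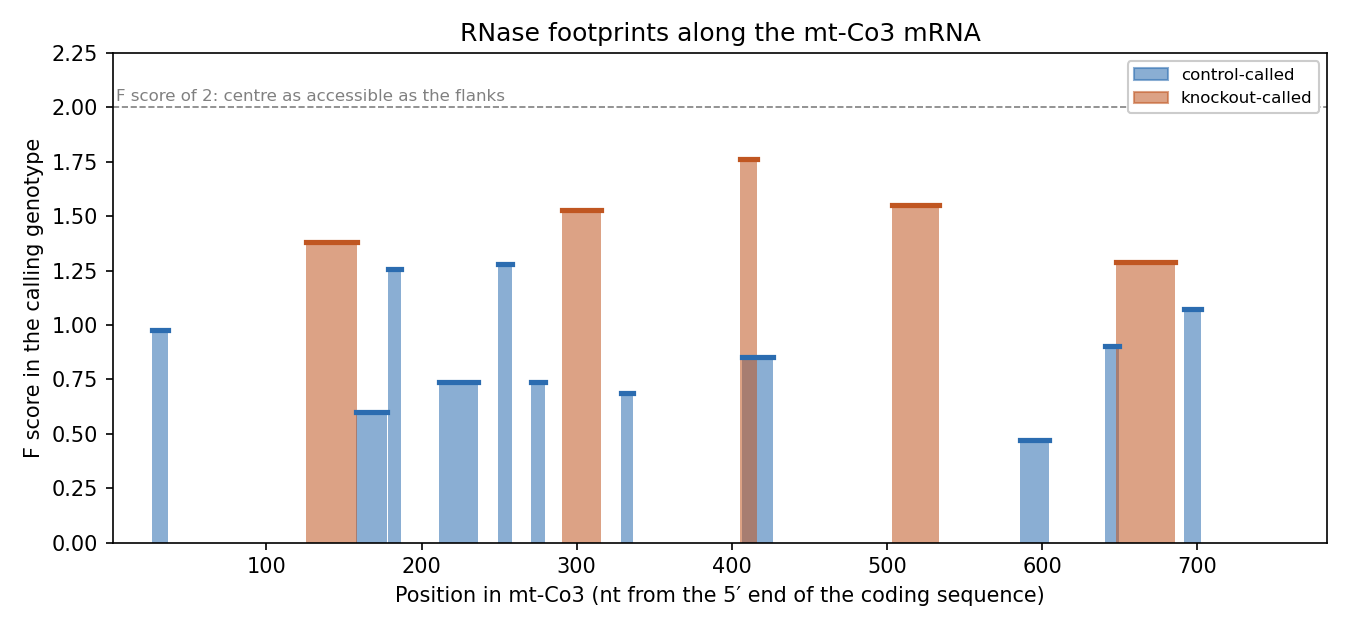
Footprints along the *mt-Co3* mRNA, with the position in nt from the 5′ end of the coding sequence on the x axis and the F score in the calling genotype on the y axis. Each block is 1 footprint and its width is its length; the 11 control-called blocks reach 0.473 to 1.28 and the 5 knockout-called blocks 1.29 to 1.76, and blocks of the 2 lists touch or overlap at 3 places.

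The lists met at 3 places on *mt-Co3*, where 3 of 11 control-called footprints (27.3%, exact Clopper-Pearson 95% interval 6.02 to 61.0%) and 3 of 5 knockout-called footprints (60.0%, 14.7 to 94.7%) shared nucleotides with one of the other list. Over all footprints these shares were 31.5% of the control-called and 42.7% of the knockout-called, values within the intervals for *mt-Co3*. These intervals cover the counting of footprints only. The calling keeps the same span from entering both lists, since the F score has to be higher in the knockout for one list and lower for the other.

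At 2 of these places the footprints met end to end. The knockout-called footprint at 8732 to 8764 and the control-called one at 8764 to 8783 shared position 8764 alone, the C with which the capitals of the latter begin in the sequence above. Those at 9247 to 9255 and 9254 to 9291 shared 2 nt, the TG at the end of TCCTTATTG. At the third place one lay almost inside the other. The knockout-called GTACTTCTAGC at 9012 to 9022 shared 10 of its 11 nt (90.9%) with the control-called footprint at 9013 to 9032, which was 50.0% of the latter. Here the F score was 0.851 for the 20 nt on the control track and 1.76 for the 11 nt on the knockout track, and the C scores were -0.0919 and 0. In all, 13 nt of the gene were in footprints of both lists.

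The 11 control-called footprints held 18.9% of the nucleotides of *mt-Co3* and the 5 knockout-called footprints 17.5%. With only footprints of at least 10 nt counted, there were 6 control-called ones with 13.4% and the same 5 knockout-called ones with 17.5%, because 5 control-called footprints were 8 or 9 nt long. There are 13 mRNA and rRNA transcripts when the bicistronic *mt-Nd4l/4* and *mt-Atp8/6* are counted once, and among them *mt-Co3* was at rank 6 for the control list, or rank 8 with at least 10 nt, and at rank 2 for the knockout list in both cases, after *mt-Co1*, which had 19.4% with all footprints counted. The upstream neighbour *mt-Atp8/6* had 19.6% and 5.70%, and *mt-Co2*, which encodes another subunit of the same enzyme, 20.8% and 12.1%.

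By number, *mt-Co3* had 14.03 control-called footprints per kb (exact Poisson 95% interval 7.00 to 25.1), the second highest density of the 13 transcripts. *mt-Co1*, which encodes the catalytic subunit of cytochrome c oxidase, had 17.5 (11.5 to 25.4), *mt-Rnr2*, the larger rRNA, 13.9 (8.72 to 21.1), and *mt-Co2* 13.2 (6.02 to 24.98). The lowest was *mt-Nd3*, with 5.75 (0.696 to 20.8). The place of *mt-Co3* rested on the footprints of 8 or 9 nt. With only those of at least 10 nt counted *mt-Co3* had 7.65 per kb (2.81 to 16.7) and was at rank 6. *mt-Co2* with 11.70 and *mt-Co1* with 11.65 were then at ranks 1 and 2. On the knockout track *mt-Co3* had 6.38 per kb (2.07 to 14.9), rank 6, between 0 for *mt-Nd3* and 9.48 for *mt-Rnr2*, and the same density was at rank 2 with at least 10 nt. These intervals, which cover counting only, overlap that of *mt-Co3* for every transcript in both lists, and no difference between transcripts was tested.

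**Figure D2:**
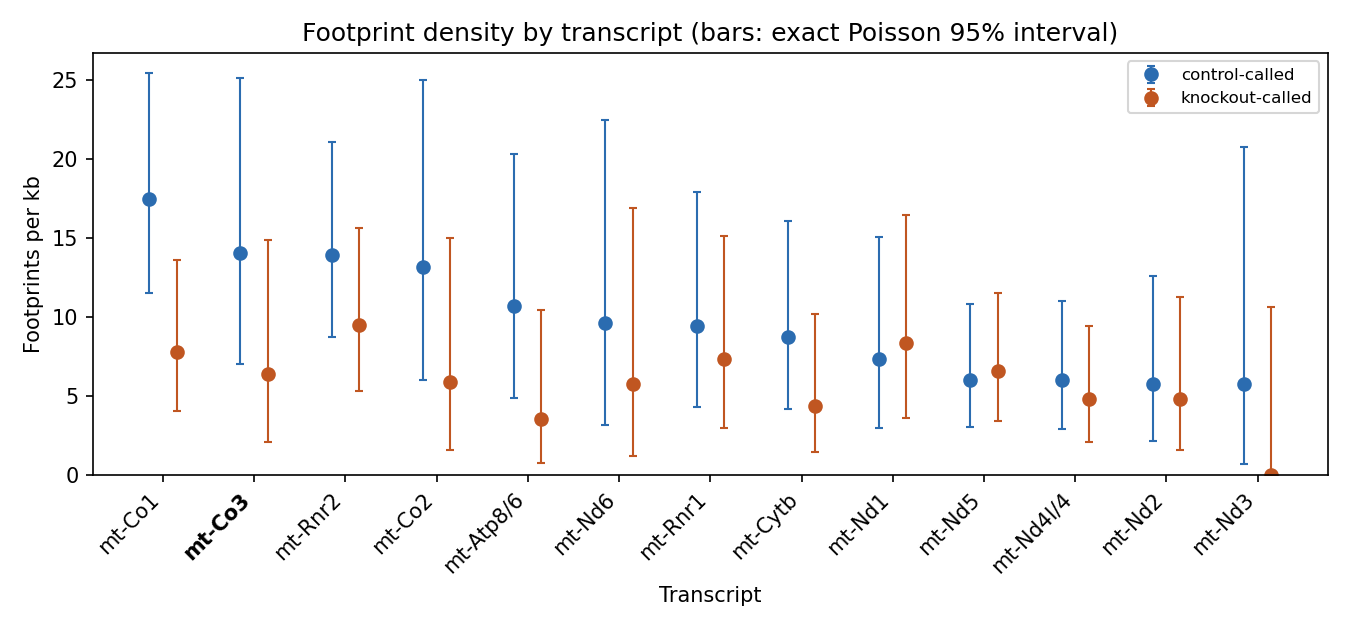
Footprints per kb of each of the 13 mRNA and rRNA transcripts, ordered by the density of control-called footprints; points are counts over annotated length and bars exact Poisson 95% intervals for counting only. *mt-Co3* (bold) has 14.03 control-called and 6.38 knockout-called footprints per kb, and its bars overlap those of all others.

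Of the 16 footprints on *mt-Co3*, 68.8% were control-called (exact Clopper-Pearson 95% interval 41.3 to 89.0%), against 58.9% of all footprints and 61.2% of those on the plus strand. The background was within the interval. With at least 10 nt the shares were 54.5% on *mt-Co3* and 59.8% of all footprints. With all lengths counted, the share was 69.2% on both *mt-Co1* and *mt-Co2*, 75.0% on *mt-Atp8/6* and lowest on *mt-Nd1*, 46.7%.

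The median length of the footprints on *mt-Co3* differed between the lists, in the order opposite to that of the medians of the whole lists. Control-called footprints were 8 to 25 nt long, with a median of 10 nt (mean 13.5 ± 6.22, SD over 11 footprints). Knockout-called footprints were 11 to 38 nt long, with a median of 30 nt (mean 27.4 ± 10.3, SD over 5 footprints). The ranges overlapped, through the knockout-called footprint of 11 nt and the control-called ones of 11 to 25 nt. Over the whole lists the medians were 16 nt and 14 nt, while the means, 17.9 and 18.6 nt, were in the same order as on *mt-Co3*. On *mt-Co3*, 7 of 11 control-called footprints were at most 11 nt long, against 36% of the control-called list, and 1 of 11 at least 25 nt, against 23.6%. Of the knockout-called ones, 4 of 5 were at least 25 nt long, against 33.9% of the knockout-called list, and 1 of 5 at most 11 nt, against 41.1%. The control-called median was the lowest of the 13 transcripts, and the knockout-called median the highest of the 12 that had such footprints, together with *mt-Nd2*. On *mt-Co1* the medians were 12 and 25.5 nt and on *mt-Co2* 14 and 20 nt, in the same order as on *mt-Co3*. On *mt-Atp8/6* both were 13 nt. The control-called median rested on the shortest footprints. With only those of at least 10 nt counted it was 19.5 nt on *mt-Co3* and 19 nt over the list, with 7 of the 13 transcripts lower, and the knockout-called medians were 30 and 20.5 nt, so that the order on *mt-Co3* was then that of the lists. With 1 track per genotype these differences have no test.

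The central C score was below 0 in all 11 control-called footprints of *mt-Co3* (exact Clopper-Pearson 95% interval 71.5 to 100%), against 61.8% of the control-called list. The lowest value was -0.537, the median -0.174 and the highest -0.0754, and each was below the median of the list, -0.0272, where 50% are by definition. In linear terms the median centre had 0.669 times the mock coverage, against 0.939 over the list. *mt-Co1* and *mt-Co2* had medians of -0.0883 and -0.0909, with 21 of 27 and 7 of 9 footprints below 0, and *mt-Atp8/6* -0.115, with 7 of 9. Of the 13 transcripts, only *mt-Nd3*, with 2 footprints, had a lower median, -0.185. With at least 10 nt all 6 were below 0, against 59.1% of the list, and the median was -0.160. The calling rule, as the paper gives it, also asks for a central C score lower in the control than in the knockout. Low values were thus selected for across this list. Footprints of 1 track are not independent, the interval covers counting only, and no difference from the list was tested.

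**Figure D3:**
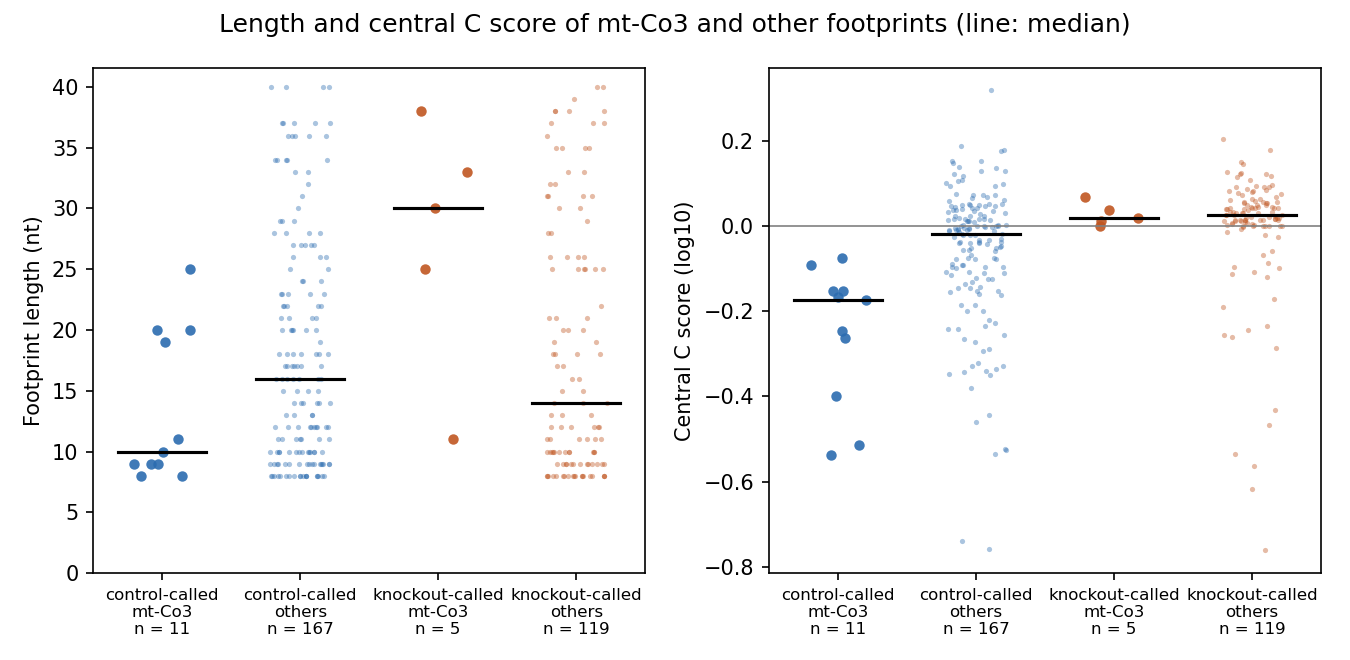
Length in nt (left) and central C score (right) of each footprint on *mt-Co3* and of all others, by list; points are footprints and lines medians. All 11 control-called footprints of *mt-Co3* lie below 0 on the right, and on the left the medians of *mt-Co3* are 10 and 30 nt.

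In the knockout-called footprints the central C score was between 0 and 0.0681, with a median of 0.0186, and 0 of 5 were below 0, against 23.4% of the knockout-called list. With 5 footprints a share of up to 52.2% stays within the exact Clopper-Pearson interval. The groups of C scores did not overlap, since the highest control-called value was -0.0754 and the lowest knockout-called value 0. These are scores of different spans on different tracks, each against its own mock digestion. The constant that the authors added to both coverages pulls the C score towards 0 where coverage is low. The paper reports that without LRPPRC every mitochondrial mRNA but *mt-Nd6* was less stable. Coverage on either track is unknown, so the part of low coverage in these C scores, and in the F scores, was not tested.

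The F scores did not overlap on *mt-Co3* either. The control-called footprints had a median of 0.851 (range 0.473 to 1.28) and the knockout-called footprints one of 1.53 (1.29 to 1.76). Over the whole lists the medians were 0.826 and 1.27, so the order is that of the lists. An F score of at most 1 was found in 8 of 11 control-called footprints, against 82.6% of that list, and in 0 of 5 knockout-called ones, against 16.1%. All 5 knockout-called F scores were above the median of their list. *mt-Co3* had the second highest knockout-called median of 12 transcripts, after *mt-Atp8/6* with 1.61. Its control-called F scores spread over nearly the whole range of the list (0.389 to 1.33), from the fifth lowest, 0.473, to the third highest, 1.28.

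Since the F score is set by the centre and the flanks together, the accessibility of the flanks can be recovered from both scores as the log10 of 2 × 10 to the power C, divided by F. This is the harmonic mean of the flanks, on the same scale as the C score. On *mt-Co3* it ran from -0.0504 to 0.356 for the control-called footprints, with a median of 0.0891, or 1.23 times mock. In the control-called list the median was 0.347, or 2.22 times mock, and 10 of the 11 footprints of *mt-Co3* were below it. The median was the lowest of the 13 transcripts, against 0.292 on *mt-Co1* and on *mt-Co2*, and 0.296 on *mt-Atp8/6*. This median was 0.257, the second lowest after *mt-Nd1* with 0.240, when only footprints of at least 10 nt were counted, since the 5 shorter ones had values from -0.0504 to 0.0982.

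Some step between sorted values is always the largest, and no grouping of the control-called footprints was tested. In their flank values the largest step was from 0.0982 to 0.235, of 0.137, where the next largest was 0.0756. The 4 above this step, at 8633 to 8642, 8764 to 8783, 8818 to 8842 and 9013 to 9032, stood at 0.235, 0.356, 0.281 and 0.279, with lengths of 10, 20, 25 and 20 nt. The probe site, of 19 nt, was below the step with 0.0891. Those with the lowest flanks were at 8935 to 8942, -0.0504, and at 9298 to 9308, 0.00727. The footprint at 8935 to 8942 had a centre almost as low as the probe site at nt 586 to 604, 0.306 times mock coverage against 0.291. Its flanks were lower, 0.890 times mock against 1.23. At 8877 to 8885 the centre was higher than at the probe site, 0.3996 times mock, and the flanks were 1.09 times mock. For the knockout-called footprints the flank values lay between 0.0550 and 0.203 around a median of 0.178, and 4 of 5 were below the median of their list, 0.196. Their flanks exceeded the centre by 1.14 to 1.55 times, against 1.56 to 4.23 times for the control-called footprints.

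**Figure D4:**
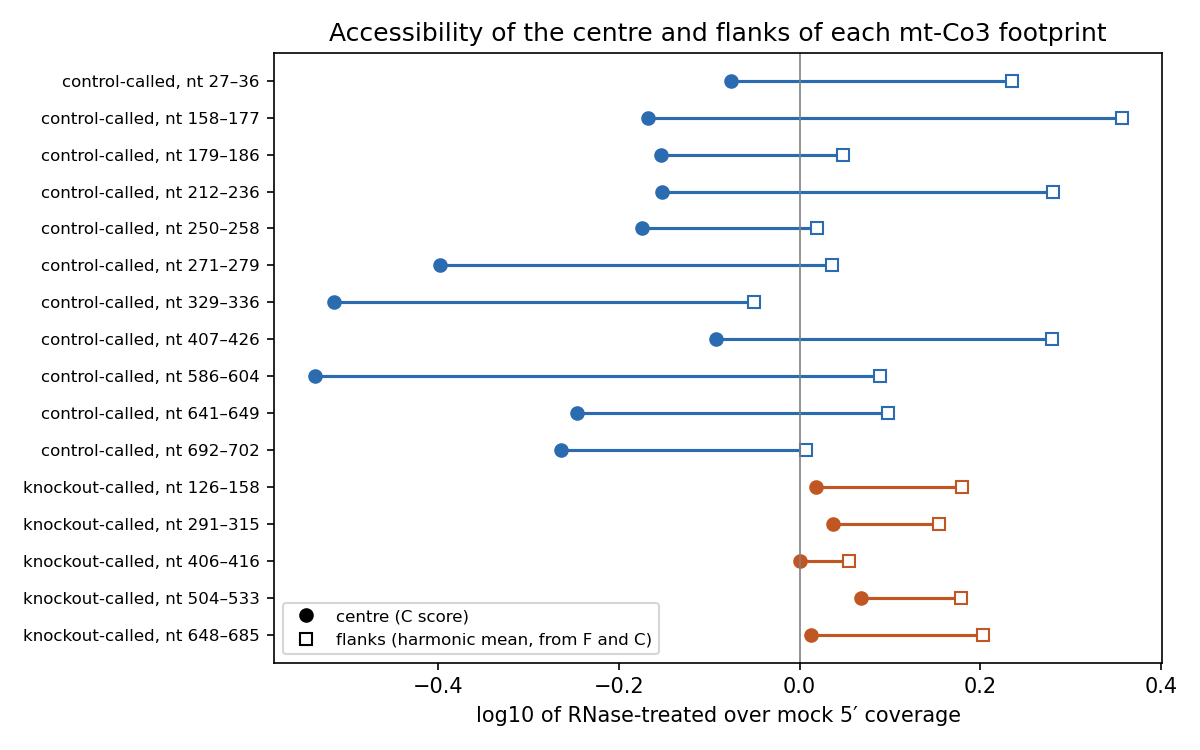
Accessibility of the centre (filled circles, C score) and of the flanks (open squares, harmonic mean from F and C) of each *mt-Co3* footprint, as log10 of RNase-treated over mock coverage; the length of a line is the depth of the footprint. All control-called centres are left of 0 and all knockout-called centres at or right of it, and the longest line is that of the probe site at nt 586 to 604.

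Of the enzymes, RNase A cleaves after pyrimidines and RNase T1 after G, while only RNase If acts after A. The part of base composition in the scores was not tested. The 148 nt of control-called footprints on *mt-Co3* were 37.2% T, 29.7% A, 19.6% C and 13.5% G, and the gene outside both lists was 29.5% T, 30.7% A, 25% C and 14.8% G. The 137 nt of knockout-called footprints were 32.1% T, 25.5% A, 32.1% C and 10.2% G. Pyrimidines made up 56.8% of the former, 64.2% of the latter and 54.5% of the rest of the gene. The share of A in control-called footprints of at least 10 nt was 32.4%, above that of the gene outside both lists, and in single control-called footprints it ran from 11.1% to 45%. The footprints of the other plus-strand mRNAs and rRNAs were 28.4% T and 22.2% C in the control list and 28.9% T and 24.3% C in the knockout list. C was thus the base in which the lists differed most on *mt-Co3*, with 19.6% and 32.1%.

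Single footprints varied widely around these shares. Among the control-called ones, T made up 66.7% of the 9 nt at 8877 to 8885 and 24.0% of the 25 nt at 8818 to 8842. In the knockout list C made up 39.4% of the 33 nt at 8732 to 8764 and 26.3% of the 38 nt at 9254 to 9291. Of the 30 nt that flanked the knockout-called footprints, 0 were G, and of the 61 nt that flanked the control-called ones and lay outside them, 8 (13.1%) were. With flanks of 10 nt these shares were 8% and 19.4%.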

How the data were processed

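RNase footprints called in heart mitochondria of *Lrpprc* knockout and control mice were analysed, with 1 list of footprints for each genotype. The authors pooled technical replicates, trimmed adapters (cutadapt 1.10, per the labels), used Bowtie2 for alignment to mm10, kept reads that also matched mitochondrial copies in the nuclear genome, normalized 5′ coverage to library size, computed C and F scores and called footprints by their false discovery rate against shuffled C scores. They added 1 to both coverages in the C score, which pulls it towards 0 where coverage is low. The deposited values are start, end and a text holding length, C score and F score. A further column, the authors' log2 fold change of the F score, was not used. No read counts are in these files, so depth is unknown.

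Footprints were assigned with GENCODE vM21, and sequences read from RefSeq's copy of the mitochondrial genome in GRCm38, of 16299 nt. All footprints on *mt-Co3* were described. Intervals were exact Poisson or Clopper-Pearson at 95%, for counting only. Assignment and the flank formula were tested on simulated data. The members, lists and comparisons were chosen with earlier results of these data known. Alternatives were full containment in the gene, at least 10 nt, merging within 3 nt, an F score of at most 1, strand ignored, means, and flanks of 10 nt. Tools were Matplotlib 3.10.9, SciPy 1.17.1, NumPy 2.4.6 and Python 3.11.15.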

Additional observations from a re-analysis of the deposited data

Results flagged for a closer look

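On the minus strand, opposite to *mt-Co3* and outside the comparisons above, the lists hold 4 footprints, 2 in each, which is above the 3 that a count of 0 allows. The lists hold 62 minus-strand footprints in all, or 2.98 per stretch of the genome as long as *mt-Co3*, so the 4 were near the density of that strand. The control-called ones were at 8847 to 8872 (26 nt, F score 1.03) and 8883 to 8918 (36 nt, F score 0.662), with central C scores of -0.00093 and -0.0111. The knockout-called ones were at 8939 to 8969 (31 nt, F score 1.13) and 9277 to 9284 (8 nt, F score 1.28), with central C scores of 0.00466 and -0.0596. All 4 overlapped plus-strand footprints of *mt-Co3*, by 9, 25, 4 and 8 nt. Whether reads were placed on the wrong strand was not tested.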

How the results depend on the processing

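Of 78 alternative values, 66 stayed close to those reported, 12 moved outside and 0 reversed. Close meant within 1.5 times a count, within the counting interval of a share or within 1 SD over footprints of a median. Part of the 66 could not change, since all 16 footprints lay wholly inside the gene. No knockout-called one was shorter than 11 nt or within 3 nt of the next, so the length and merging alternatives left these as they were. Values were scored singly, so a change of order between them did not count as reversed. With footprints of at least 10 nt only, 6 control-called footprints remained on *mt-Co3*, with a median length of 19.5 nt, flanks at 0.257 and 13.4% of the gene covered, since 5 of the 11 are shorter. That coverage was below the 17.5% of the knockout list, whereas with all lengths it was above. The control-called share then fell below that of all footprints, 54.5% against 59.8%, having been above. With an F score of at most 1, 0 knockout-called footprints were left, with 0% of the gene covered and 0 shared nucleotides, so that 100% of the footprints were control-called, and these covered 15.3% of the gene. With strand ignored, the footprints of the opposite strand were added, which covered 25.3% (control-called) and 21.4% (knockout-called) of the gene with 39 nt shared. No paired analysis was possible because each genotype has 1 track, made of all its libraries, and the labels give no replicate numbers. Leaving out a replicate was not possible for the same reason. Library depth is unknown, and with 11 and 5 footprints the counting intervals are wide.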
